A study of Mus musculus with 8 samples.

Results

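The 10 genes described here encode enzymes of glycolysis that follow hexokinase, from glucose phosphate isomerase to pyruvate kinase. Enolase and some other isozymes of these steps are not among them and are described separately. The 10 are *Gpi1*, *Pfkl*, *Pfkp*, *Aldoa*, *Aldoc*, *Tpi1*, *Gapdh*, *Pgk1*, *Pgam1* and *Pkm*. They were chosen by their role, with earlier results of these data known, and found by symbol among the 24091 genes of the count table. RNA-seq libraries of pancreatic islets from 6-week-old mice on the C57BL/6 background were compared, 4 labelled wild-type (control) and 4 labelled Ngn3-Cre, itgb1-/- (mutant). The mutants lose *Itgb1*, which encodes integrin β1, through a Cre recombinase active in endocrine progenitors, so islet endocrine cells carry the deletion while vessel, stromal and other cells of the islet keep the gene. The *Ngn3-Cre* driver is also active in parts of the brain and the gut. The labels do not tie libraries to mice, and the study's own list of replicates counts fewer animals per genotype for RNA-seq at this age than the 4 libraries of each group, so libraries of a group may share a mouse. In that case the p-values given here are too small.

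Below hexokinase, glucose 6-phosphate is isomerized, phosphorylated once more by phosphofructokinase, split by aldolase, and oxidized and dephosphorylated to pyruvate with a net gain of ATP. In β-cells this flux couples blood glucose to insulin secretion, because pyruvate is burnt in mitochondria and the ATP formed closes potassium channels. Many genes of these enzymes are known targets of the hypoxia-inducible factors (HIF), which raise glycolysis when oxygen is low.

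*Itgb1* itself was at 421.5, 432, 408 and 314.5 CPM (counts per 1 M counts of a library, with TMM scaling) in controls 1 to 4 and at 266, 225.5, 193 and 255 in mutants 1 to 4, so that every mutant lay below every control (log2 fold change -0.75, SE 0.15, with an edgeR adjusted p of 0.233). Hormone-producing cells were present in all libraries, with 31800 to 174100 CPM summed over 9 β-cell markers and 10440 to 92780 over 5 α-cell markers. Libraries held 35.1 to 67.6 M counts. Control 2, control 3 and mutant 3 held over 50 M and the other 5 held at most 41 M, and these library sets were treated as a technical division. Controls 2 and 3 stood apart with 3256 and 10180 CPM of acinar markers, against 29.1 to 706 in the other 6 libraries. In bulk islets, fewer cells of a type and less RNA per cell cannot be told apart.

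All 10 enzymes had higher mean levels in mutant than in control islets, by a fitted 1.80-fold for *Gapdh* to 3.22-fold for *Pfkp*. The median log2 fold change was 1.37, against 0.00153 over all 15233 genes tested. With p-values adjusted across the whole table, the quasi-likelihood test of edgeR called none of them (more than 2-fold apart, adjusted p below 0.05), nor any other gene (0%). At an unadjusted p below 0.05 all 10 were higher, compared with 6.8% of tested genes, and the smallest adjusted p of the 10 was 0.301. Because the 10 were chosen with earlier results of these data known, such shares, here and below, describe the list and do not test it. DESeq2 called 4 of them at the same adjusted thresholds (*Aldoc*, *Aldoa*, *Gpi1* and *Pgk1*, all higher), where it called 0.738% of the genes it tested as higher.

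**Figure D1:**
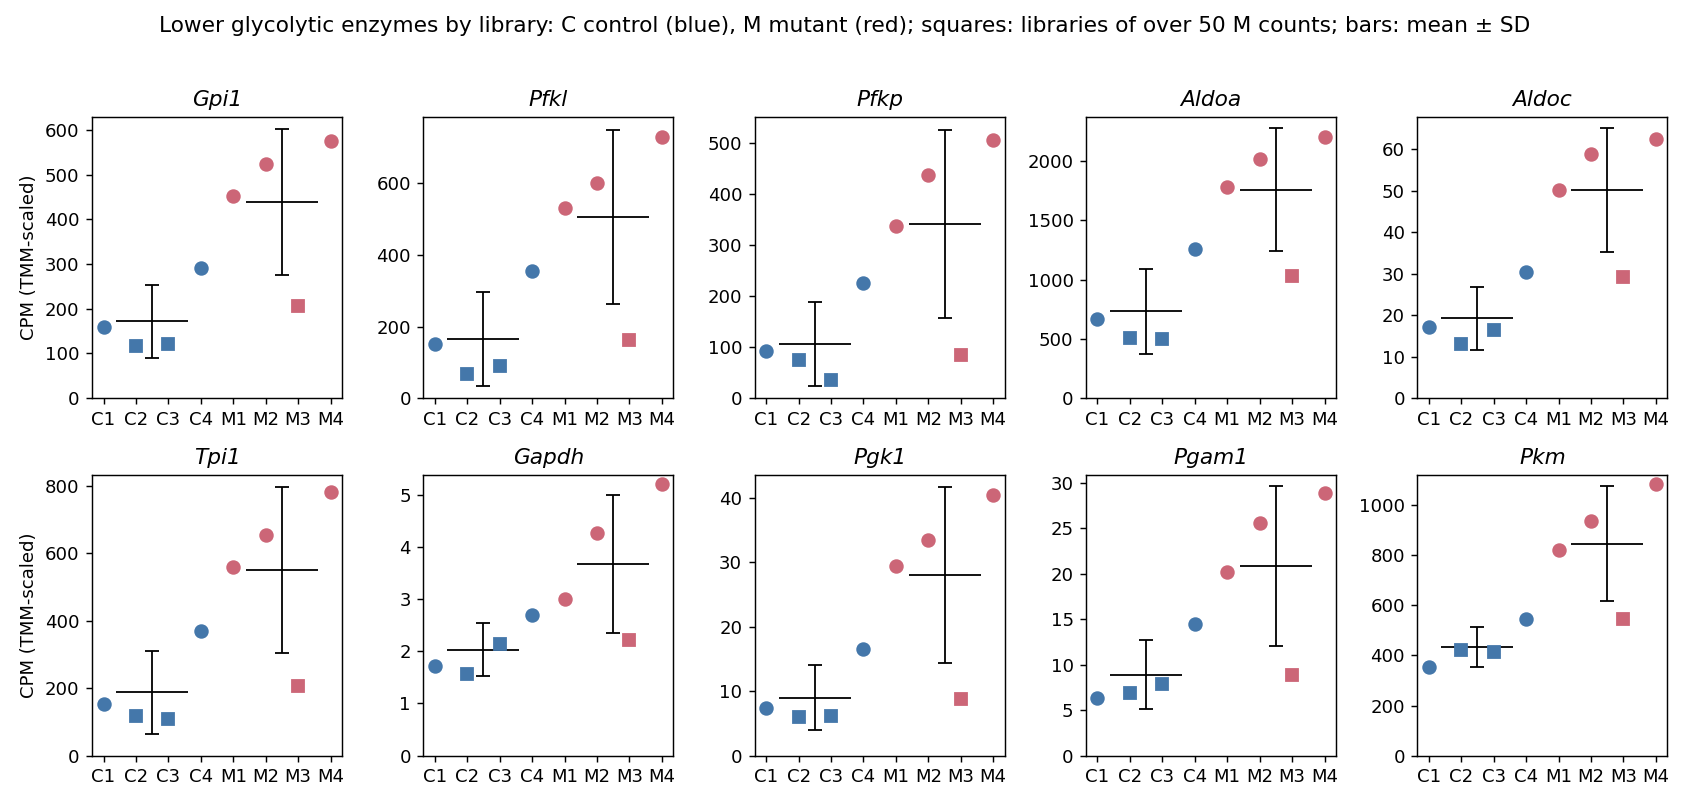
Each panel plots the level of 1 enzyme gene in CPM against the 8 libraries, with controls (C1 to C4) in blue and mutants (M1 to M4) in red, squares for libraries of over 50 M counts, and black bars for the mean ± SD of each group (n = 4). In every panel mutants 4, 2 and 1 are the 3 highest libraries and control 4 the next, while mutant 3 lies at or below control 4.

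The libraries fell into nearly the same order for every enzyme. For all 10 genes mutant 4 was the highest library, followed by mutant 2, mutant 1 and control 4, an order of the 4 highest libraries that 1.57% of all tested genes had. Each enzyme's standardised log2 CPM over the 8 libraries had a Pearson r of 0.938 (*Gapdh*) to 0.996 (*Gpi1*) with the mean of the other 9, which is a description, since all share the same libraries. Controls 1 to 3 were the lowest 3 libraries for 9 of the 10 genes, the exception being *Pfkp*, and for 5.01% of tested genes. Mutant 3 was the lowest mutant and control 4 the highest control for each gene. The groups therefore overlapped for all 10 enzymes, and 0 of 10 had all mutants above all controls, a pattern found for 4.4% of tested genes.

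*Gpi1*, glucose phosphate isomerase, converts glucose 6-phosphate to fructose 6-phosphate and lies on chromosome 7 from 34201327 to 34230336 on the minus strand of GRCm38. It was at 158, 116, 119.9 and 291 CPM in controls 1 to 4 and at 452, 524, 205 and 575 in mutants 1 to 4. Mutants 1, 2 and 4 lay above all controls and mutant 3 above controls 1 to 3 only. The means were 171 ± 82 and 439 ± 164 CPM (SD, n = 4 each), a log2 difference of 1.36 with an SE of 0.39. The adjusted p was 0.333 in edgeR and 0.0323 in DESeq2.

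Phosphofructokinase catalyses the committed step of the pathway, and its liver and platelet isozymes showed the widest spread of the 10. *Pfkl* (chromosome 10, 77986949 to 78009796) was at 151, 66.5, 89.2 and 356 CPM in controls 1 to 4 and at 531, 601, 163 and 729.9 in mutants 1 to 4. *Pfkp* (chromosome 13, 6579874 to 6648771) was at 91.4, 73.7, 34.9 and 225 CPM in the controls and at 337, 438, 85.2 and 506 in the mutants. From the lowest to the highest library *Pfkl* spanned 11-fold and *Pfkp* 14.5-fold, while within the controls alone control 4 stood 5.35-fold and 6.46-fold above the lowest. For *Pfkp*, mutant 3 was also below control 1. The log2 fold changes were 1.61 (SE 0.60) for *Pfkl* and 1.69 (SE 0.64) for *Pfkp*, and edgeR gave both an adjusted p of 0.333, where DESeq2 gave 0.0948 and 0.102. Without control 4 the fitted fold changes went from 3.05 to 4.95 for *Pfkl* and from 3.22 to 5.12 for *Pfkp*, and edgeR's adjusted p was 0.198 for both.

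Aldolase splits fructose 1,6-bisphosphate, and *Aldoa* was the most abundant of the 10 enzymes per kb of gene length. *Aldoa* (chromosome 7, 126795234 to 126800447) was at 671, 505, 494 and 1258 CPM in controls 1 to 4 and at 1782, 2020, 1029 and 2207 in mutants 1 to 4. *Aldoc*, the form known from brain (chromosome 11, 78323073 to 78327778), was at 17.1, 13.1, 16.5 and 30.4 CPM in the controls and at 50.2, 58.9, 29.3 and 62.5 in the mutants. For *Aldoc*, mutant 3 and control 4 were nearly level and all other mutants lay above all controls. The log2 fold changes were 1.26 (SE 0.36) for *Aldoa* and 1.38 (SE 0.31) for *Aldoc*, and their adjusted p-values were 0.333 and 0.301 in edgeR against 0.0288 and 0.00439 in DESeq2. *Aldoc* was the one enzyme that edgeR's likelihood ratio test also called (adjusted p = 0.0147), where it called 0.407% of all genes as higher.

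*Tpi1*, triosephosphate isomerase, interconverts the 2 triose phosphates that aldolase makes (chromosome 6, 124810592 to 124814296). It was at 154, 117, 109 and 369 CPM in controls 1 to 4 and at 558, 653, 206 and 781 in mutants 1 to 4, again with control 4 above mutant 3. The log2 difference was 1.55 with an SE of 0.50, and the adjusted p was 0.333 in edgeR and 0.0533 in DESeq2.

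The enzymes of the lower phase make ATP and NADH. *Gapdh*, glyceraldehyde-3-phosphate dehydrogenase (chromosome 6, 125161852 to 125166467), was at 1.71, 1.56, 2.15 and 2.69 CPM in controls 1 to 4 and at 3.01, 4.26, 2.22 and 5.19 in mutants 1 to 4, from 66 to 219 counts per library. *Pgk1*, phosphoglycerate kinase (chromosome X, 106187100 to 106203699), was at 7.34, 5.99, 6.17 and 16.6 CPM in the controls and at 29.5, 33.5, 8.82 and 40.5 in the mutants. *Pgam1*, phosphoglycerate mutase (chromosome 19, 41911871 to 41918665), was at 6.30, 6.90, 7.90 and 14.5 CPM in the controls and at 20.2, 25.6, 8.89 and 28.9 in the mutants. Mutant 3 lay close to controls 1 to 3 for these 3 genes, and the other mutants lay above all controls. Their log2 fold changes were 0.85 (SE 0.32) for *Gapdh*, 1.64 (SE 0.50) for *Pgk1* and 1.23 (SE 0.39) for *Pgam1*, and edgeR gave each an adjusted p of 0.333, where DESeq2 gave 0.175, 0.0406 and 0.0779.

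*Pkm*, pyruvate kinase, makes pyruvate and ATP in the last step (chromosome 9, 59656368 to 59679375), and its counts sum the M1 and M2 forms made from it by splicing. It was at 354, 423, 415 and 545 CPM in controls 1 to 4 and at 821, 936, 543.5 and 1084 in mutants 1 to 4. Mutant 3 and control 4 were level, and the spread was the narrowest of the 10, 3.06-fold from the lowest to the highest library. The log2 difference was 0.96 with an SE of 0.23, and the adjusted p was 0.301 in edgeR and 0.00998 in DESeq2, where the fold change stayed below 2.

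Since the enzymes varied together over the libraries, the 250 bases before each gene's start were searched on both strands in RefSeq promoters of GRCm38.p6. The letters sought were ACGTG, a form of the core RCGTG (R is A or G) that HIF binds. The other form, GCGTG, was not counted, so the search does not tell which promoters lack a HIF core. ACGTG was found for 2 of the 10 enzymes, *Pgk1* and *Pgam1*, and for 18% of 17453 genes. The share of ACGTG among the enzymes was thus near that of all genes. The longer E-box CACGTG, which contains ACGTG, was found for 0 of the 10 and for 6.9% of all genes. A match is a description of letters only, and longer promoters were not searched. The promoters with a match are given with it in capitals, 5′ to 3′, beside that of *Aldoc*, the enzyme with the smallest p. The *Aldoc* promoter has no ACGTG but holds GCGTG, which is left in small letters there and in *Pgam1*.
Pgk1, chrX:106186850-106187099, plus strand: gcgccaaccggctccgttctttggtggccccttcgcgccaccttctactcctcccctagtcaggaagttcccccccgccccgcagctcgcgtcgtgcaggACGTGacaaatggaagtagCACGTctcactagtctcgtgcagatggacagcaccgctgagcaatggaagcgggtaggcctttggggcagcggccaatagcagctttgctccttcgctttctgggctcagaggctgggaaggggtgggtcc
Pgam1, chr19:41911621-41911870, plus strand: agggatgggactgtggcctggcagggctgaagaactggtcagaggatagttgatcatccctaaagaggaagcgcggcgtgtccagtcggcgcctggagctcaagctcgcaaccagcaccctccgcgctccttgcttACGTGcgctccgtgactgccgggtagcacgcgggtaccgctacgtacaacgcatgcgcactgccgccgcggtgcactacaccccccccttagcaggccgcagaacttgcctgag
Aldoc, chr11:78322823-78323072, plus strand: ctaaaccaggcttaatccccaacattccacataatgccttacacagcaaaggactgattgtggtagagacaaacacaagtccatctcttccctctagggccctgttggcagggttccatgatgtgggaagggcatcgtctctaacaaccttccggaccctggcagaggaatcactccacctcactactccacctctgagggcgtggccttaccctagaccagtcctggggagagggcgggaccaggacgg

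**Figure D2:**
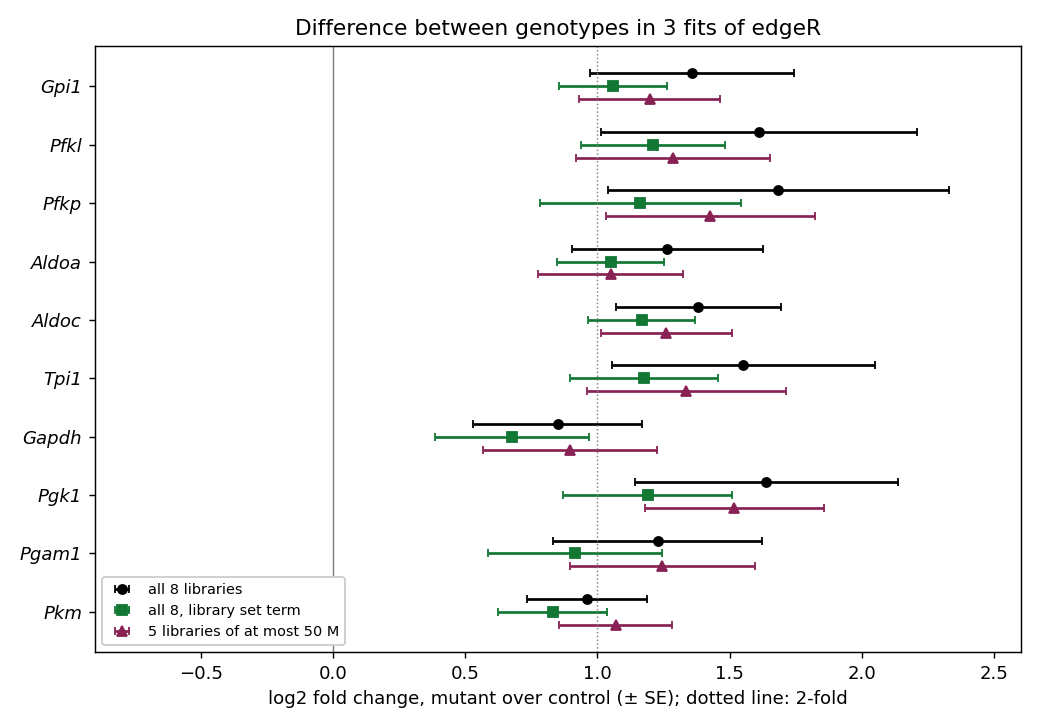
Log2 fold changes of the 10 enzymes, mutant over control, with bars of 1 SE, from edgeR with all 8 libraries (circles), with all 8 and a term for the library set (squares), and within the 5 libraries of at most 50 M counts (triangles). All 30 points lie to the right of 0, and those for *Gapdh* lie left of the dotted line of a 2-fold difference in each fit.

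Because the 3 larger libraries stood apart, each value was also taken within the library sets. Within the 5 smaller libraries (controls 1 and 4, mutants 1, 2 and 4) every mutant lay above both controls for all 10 enzymes, as for 21.7% of tested genes, and the log2 fold changes ran from 0.90 for *Gapdh* to 1.52 for *Pgk1*. All 10 were higher there at an unadjusted p below 0.05, compared with 12.6% of the genes tested, and none was called by edgeR across the table (smallest adjusted p 0.0892, for *Aldoc*), where 0.0449% of genes were called as higher. Among the 3 larger libraries mutant 3 lay above controls 2 and 3 for all 10, as for 40.2% of tested genes. With 1 mutant library this tests nothing about the genotype. Mutant 3 was 2.09-fold above the mean of controls 2 and 3 for *Pfkl* and 2.06-fold for *Aldoa*, but 1.20-fold for both *Gapdh* and *Pgam1* and 1.30-fold for *Pkm*.

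With a term for the library set over all 8 libraries, the log2 fold changes ran from 0.68 for *Gapdh* to 1.21 for *Pfkl* (median 1.11), and 9 of 10 were higher at an unadjusted p below 0.05, compared with 8.65% of tested genes. The difference between genotypes was compared between the library sets with an interaction term. All 10 terms were below 0, from -0.01 for *Aldoa* to -0.99 for *Pgk1* on the log2 scale, and edgeR's adjusted p-values ran from 0.207 to 0.989. None of the 10 reached an unadjusted p below 0.05, where 4771 of 15233 genes did. The larger set holds 1 mutant, so these terms rest on mutant 3.

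Levels can be compared between genes only per kb of gene length. In control islets the order was *Aldoa* at 404 ± 199 CPM per kb, *Pkm* at 125 ± 22.9, *Tpi1* at 118 ± 77.1, *Gpi1* at 48.4 ± 23.2, *Pfkl* at 44.9 ± 35.7, *Pfkp* at 23.1 ± 18, *Aldoc* at 6.73 ± 2.67, *Pgk1* at 4.97 ± 2.79, *Pgam1* at 4.87 ± 2.07 and *Gapdh* at 1.36 ± 0.342 (SD, n = 4). Of neighbours in this order, *Aldoa* and *Pkm*, and *Pgam1* and *Gapdh*, differed by more than the larger SD of the pair, and the others did not. In mutant islets *Aldoa* was at 970 ± 285, *Tpi1* at 345 ± 154, *Pkm* at 243 ± 65.7, *Pfkl* at 137 ± 65.8 and *Gpi1* at 124 ± 46.3 CPM per kb, and *Gapdh* was again the lowest at 2.47 ± 0.887.

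Several of these genes share sequence with other loci, which bears on how their levels can be read. Reads were 50 bases long, and the counting program at its default leaves out reads that align to several places or overlap several genes. Of all windows of 50 bases in the *Gapdh* transcript, 17.5% occur in no transcript of another gene in GENCODE vM21, and 299 other genes, 288 of them pseudogenes, hold one of its windows with at most 1 mismatch. The share was 32% for *Pgk1*, with 5 such pseudogenes, 58.5% for *Pgam1*, with 4, and 65.6% for *Pkm*, with 10. It was 74.7% for *Gpi1*, 82.9% for *Pfkp*, whose end overlaps the neighbouring gene *Pitrm1*, 86.1% for *Aldoa*, 92.5% for *Tpi1*, 99.9% for *Pfkl* and 100% for *Aldoc*. Windows with no match even at 1 mismatch made up 15.2% for *Gapdh*, 32% for *Pgk1*, 43.7% for *Pkm*, 51.4% for *Gpi1*, which had 436 such other genes, 58.5% for *Pgam1*, 69.4% for *Aldoa* and 76% for *Tpi1*. By exact matches the lowest shares were those of *Gapdh*, *Pgk1* and *Pgam1*, which were also the lowest of the 10 per kb in both groups. *Aldoc*, with 100%, came next above them in level. With 1 mismatch allowed, the shares of *Pkm* and *Gpi1* were below that of *Pgam1*, although their levels per kb were higher. The levels of genes that share windows are uncertain, and the part of this sharing in them was not tested.

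**Figure D3:**
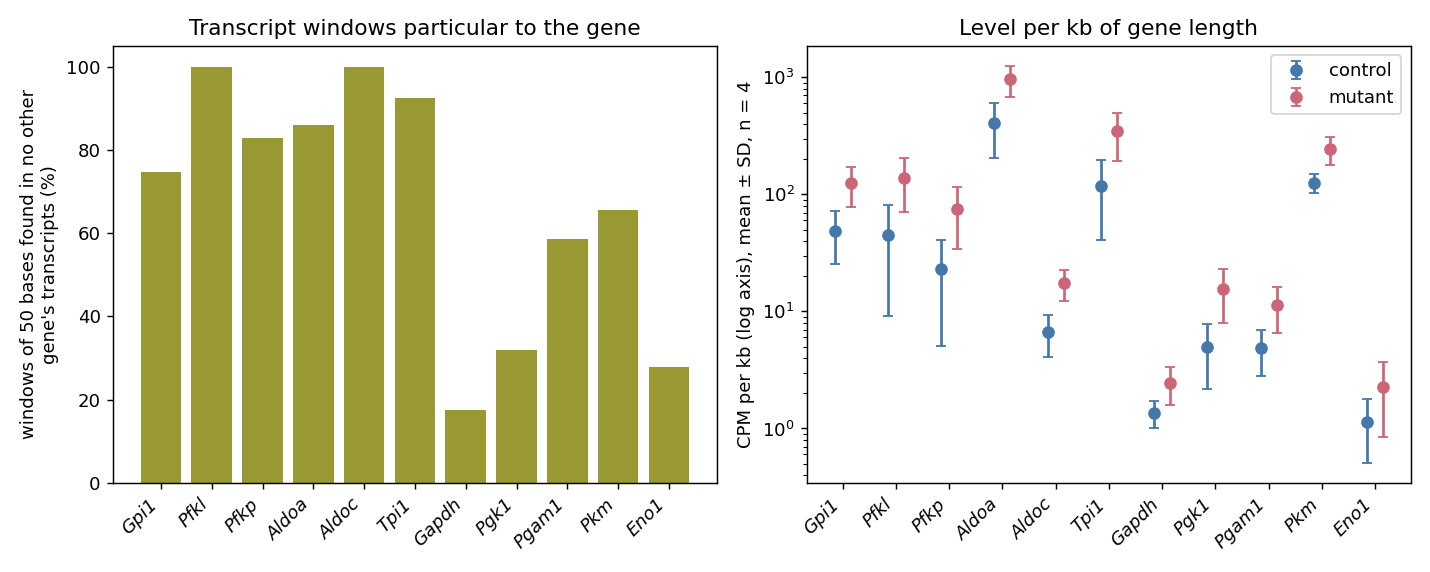
Left, the percentage of 50-base windows of each gene's principal transcript that no other gene's GENCODE transcript holds. Right, the mean level in CPM per kb on a log axis with SD (n = 4), controls in blue and mutants in red: *Gapdh* and *Eno1*, with 17.5% and 27.8% of such windows, are the lowest genes plotted.

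Enolase, the step between *Pgam1* and *Pkm*, was measured with its other isozymes. *Eno1*, the common form, had 0.50 to 10.8 CPM, with 9.31, 9.38 and 10.8 in mutants 1, 2 and 4, 0.50 in mutant 3 and 1.58 to 6.15 in the controls. Only 27.8% of its windows are its own, and its row overlaps that of *Eno1b*, which the table stretches along chromosome 4 from 48045335 to 150248873, so its level is uncertain. *Eno2*, the neuronal and endocrine form, averaged 103 ± 20.1 CPM among the 4 controls and 94 ± 15 among the 4 mutants (SD), and *Eno3*, the muscle form, at 10.2 ± 4.19 and 6.39 ± 0.83.

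Other isozymes of the same steps had no common direction. Of 9 such genes 6 had enough counts to be tested, with 2 higher and 4 lower mean levels and a median log2 fold change of -0.12. *Pfkm*, the muscle phosphofructokinase, was at 52.7, 84.5, 88.7 and 65.2 CPM in controls 1 to 4 and at 56.9, 65.5, 84.3 and 63.6 in mutants 1 to 4, a log2 difference of -0.11 with an SE of 0.19 and an edgeR adjusted p of 0.807. The log2 fold change of *Pklr*, pyruvate kinase of liver and red cells, was 0.19 (SE 0.24), that of *Eno2* -0.14 (SE 0.17), of *Eno3* -0.68 (SE 0.29), of *Eno4* -0.41 (SE 0.46) and of *Eno1* 1.0 (SE 0.77). None of the 6 passed over all genes, and *Eno3* alone, lower in mutants, had an unadjusted p below 0.05.

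The make-up of phosphofructokinase varied between libraries. By counts per kb *Pfkm* held 22.3, 45, 48 and 12.9% of the 3 isozymes in controls 1 to 4 and 7.97, 7.74, 30.8 and 6.39% in mutants 1 to 4. *Pfkl* held 29.1 to 57.7% in controls and 48.7 to 60.9% in mutants, and *Pfkp* 12.4 to 29.4% and 20.5 to 34.1%. The groups overlapped for each isozyme, since mutant 3 lay between control 1 and control 2 in its *Pfkm* share. Between *Aldoa* and *Aldoc* the shares were close in all libraries. *Aldoa* held 97.9 to 98.5% of their summed counts per kb in controls and 98.2% in each mutant, and *Aldoc* 1.51 to 2.07% and 1.75 to 1.82%. *Pkm* held 95 to 96.8% of pyruvate kinase in controls and 94.7 to 98.6% in mutants.

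**Figure D4:**
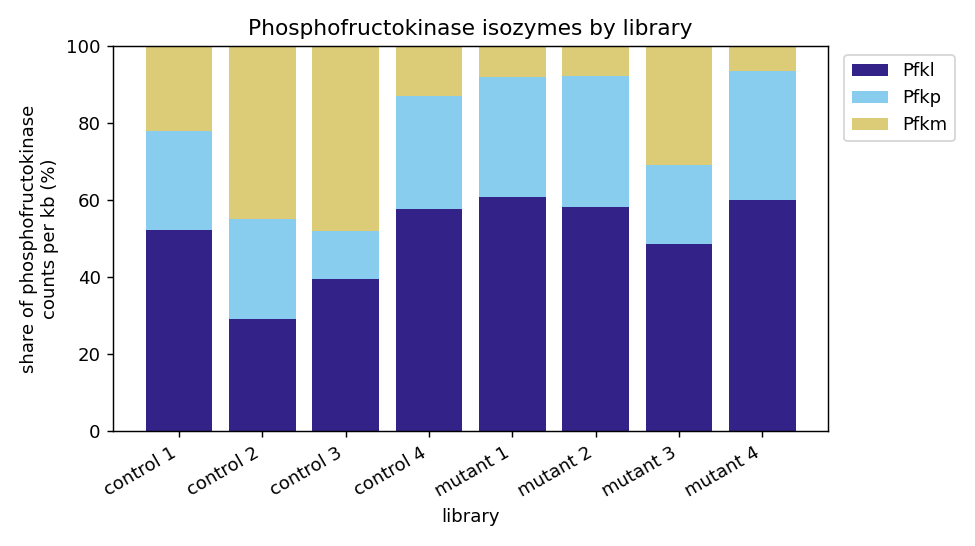
Stacked bars show the share of *Pfkl*, *Pfkp* and *Pfkm* in all phosphofructokinase counts per kb (percent) in each of the 8 libraries. The *Pfkm* part is 45 and 48% in controls 2 and 3 and below 8% in mutants 1, 2 and 4.

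Around the 10 enzymes, 24 genes of glucose entry, pathway regulation and exit to lactate or mitochondria were listed, and 23 had enough counts. Of these 18 had higher and 5 lower means (median log2 fold change 0.36). Across the table edgeR called none, with 7 above and 3 below the controls at unadjusted p-values under 0.05. Of all 15233 genes tested, 1036 were higher and 1096 lower at that p. DESeq2 called 1 of the list higher and 1 lower, where it called 110 of 15208 genes higher and 76 lower. The 3 with the smallest p were *Hk1*, a high-affinity hexokinase, with a log2 fold change of 1.29 (SE 0.37), *Pfkfb2*, a kinase that makes the phosphofructokinase activator fructose 2,6-bisphosphate, with -0.75 (SE 0.22), and *Slc2a2*, the β-cell glucose transporter and also one of the β-cell markers, with -2.49 (SE 0.76). Each had an adjusted p of 0.333 in edgeR. *Pfkfb2* was the one gene of the list whose groups did not overlap, at 145 to 279 CPM in controls and 121 to 130.3 in mutants. How many of all tested genes had every mutant below every control was not counted, so this is a description. Of 8 gluconeogenic genes 6 were tested, with a median of 0.12 and 0 at an unadjusted p below 0.05 or called by DESeq2. Those of smallest p were *Fbp2* and *Fbp1*, fructose bisphosphatases that oppose phosphofructokinase, with log2 fold changes of 1.66 (SE 0.84) and 0.66 (SE 0.57), and *G6pc3*, a glucose 6-phosphatase, with 0.23 (SE 0.13).

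**Figure D5:**
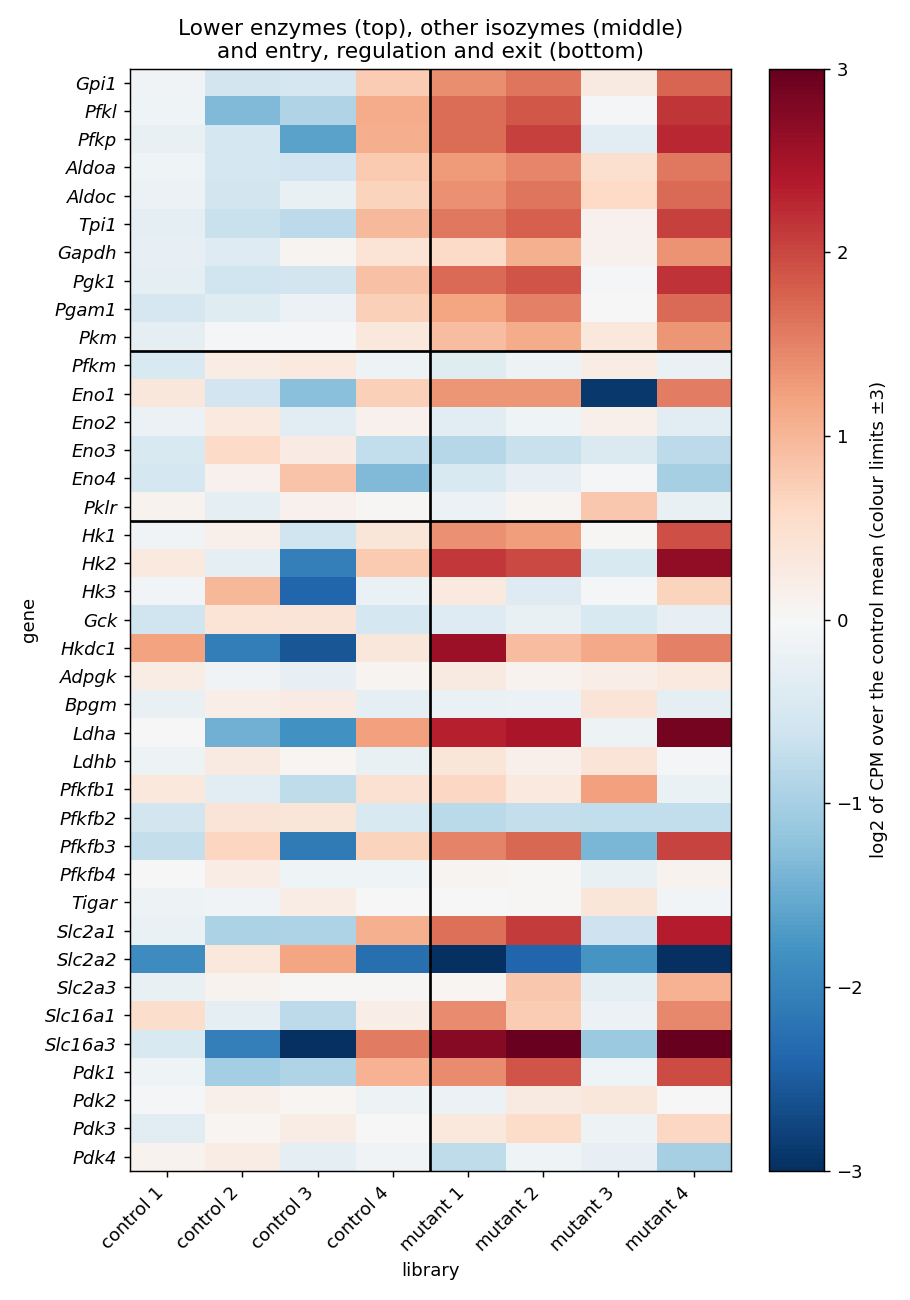
The colour gives the log2 of a gene's CPM in a library (columns) over the mean of the controls, for the 10 enzymes (top), 6 other isozymes of these steps (middle) and 23 genes of entry, regulation and exit (bottom), with values beyond 3 in size shown at the end of the scale. Each of the 10 enzymes is redder in mutants 1, 2 and 4 than in control 4 or mutant 3. Mutant 3 is pale, and *Pkm* has the same pale colour there as in control 4.

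A list of other genes that respond to HIF was also higher on average. All 20 of its genes had higher means in mutants (median log2 fold change 1.46). None was among the 10 enzymes, and 2 (*Slc2a1* and *Pdk1*) were also on the list of entry and regulation. At an unadjusted p below 0.05 in edgeR 13 were higher, compared with 6.8% of tested genes. Across the table edgeR called 0 of them, and DESeq2 called 2 higher, compared with 0.738% of the genes it tested. Summed over the list, controls 1 to 4 had 2046, 1855, 1721 and 3438 CPM and mutants 1 to 4 had 4236, 5472, 2023 and 6086, so that mutants 4, 2 and 1 and control 4 were again the 4 highest, in that order. Single genes of the list could depart from this order, as did *Car9*, with 2.57 CPM in control 1 and 2.05 in control 4. Within the 5 smaller libraries the median log2 fold change of the list was 1.25.

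Markers of other cell types had their own patterns. The summed level of 9 markers of fibroblasts, stellate cells and pericytes was 329.9 to 484 CPM in controls and 664 to 886 in mutants without overlap, with 7 of the 9 higher and 6 at an unadjusted p below 0.05. Here mutant 3 was the second highest library at 807 CPM, and for every glycolytic enzyme it was the lowest mutant. What part these cells have in the levels of the enzymes was not tested. Ductal markers summed to 272 to 1568 CPM in controls and 1025 to 2886 in mutants, with 4 of 5 higher and 2 at an unadjusted p below 0.05. Endothelial markers summed to 494 to 575 and 482 to 603 CPM, with 3 of 6 higher. Macrophage and leukocyte markers summed to 42.7 to 53.2 and 41.1 to 103 CPM, with 3 of 6 higher, and Schwann cell markers to 19.4 to 25.1 and 22.2 to 34.3, with 2 of 4 higher. Of 5 listed markers of red blood cells, which live on glycolysis, 3 were in the count table. These summed to 10.2 to 16.2 CPM in controls and 1.89 to 12.9 in mutants, with 3 of 3 lower.

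The endocrine and acinar markers were lower on average in mutants, with medians of -1.34 for 9 of 9 β-cell, -1.20 for 5 of 5 α-cell, -0.95 for 3 of 3 δ-cell and -3.70 for 9 of 9 acinar markers tested; the tenth acinar marker, *Amy2a5*, was at 0 in all 8 libraries. Controls 2 and 3 held 121200 and 174100 CPM of the β-cell markers against 31800 to 49530 in the other 6 libraries, while for the δ-cell markers control 3 alone stood apart, at 5193 CPM against 832.1 to 2326. Within the 5 smaller libraries, where acinar markers summed to 29.1 to 706 CPM, the median was 0.06 for the β-cell markers, where unadjusted p-values under 0.05 were found for 3 that were lower and 1 that was higher, -0.58 for the α-cell markers, with 2 lower, -0.62 for the δ-cell markers, with 1 lower, and 0.85 for the acinar markers, with none. The median of the 10 enzymes there was 1.25. What part these cell types have in the levels of the 10 enzymes over all 8 libraries was not tested.

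Among all other tested genes, the 5 whose log2 CPM over the 8 libraries were most like the mean of the 10 standardised enzymes were *Iba57*, an iron-sulfur cluster assembly factor (Pearson r = 0.994, Spearman rho = 1), *Pafah1b3*, a platelet-activating factor acetylhydrolase subunit (0.993 and 0.976), *Endog*, a mitochondrial nuclease (0.992 and 1), *Grhpr*, glyoxylate reductase (0.989 and 0.929) and *Fam162a*, which is on the HIF list (0.988 and 1). These are descriptions over the same 8 libraries, which share their genotype groups, and they were picked as the highest of all tested genes. *Fam162a* was at 20.2, 9.5, 14.8 and 62.6 CPM in controls 1 to 4 and at 91.6, 124, 24.1 and 157 in mutants 1 to 4, whereas *Iba57* spanned only 10.5 to 20.8 CPM.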

How the data were processed

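Per the labels and the paper's methods, the authors depleted ribosomal RNA (RiboErase), sequenced single ends, trimmed with Trimmomatic and FASTP, mapped to mm10 (GRCm38) using STAR, and obtained gene counts from featureCounts with its defaults. These deposited counts, 1 column per library, were used as they are, with the gene length in kb of the same table. The authors' own comparison, which holds log2 fold changes, p-values, FDR and CPM, was not used, and its 8 per-library columns carry other numbers than the sample titles.

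After the low count filter (15233 of 24091 genes kept), edgeR 4.0.16 in R 4.3.3 was run with TMM factors, its quasi-likelihood test and a single genotype term, since the batches the authors corrected are not named, and p-values were adjusted by Benjamini-Hochberg over all genes. Each SE is the absolute log2 fold change over the root of F. DESeq2 1.42.0, the likelihood ratio test, other factors and filters, the replicate block, the library set term and leaving out each library were alternatives. The tests were checked on simulated counts. The smallest chi-square per gene between libraries was 26.6, so no pair was the same library.

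The members and gene lists were chosen with earlier results of these data known. All 10 enzymes were named, with other isozymes of their steps (1 result is not reported here), the 3 genes of smallest p among those of entry, regulation and exit and among the gluconeogenic genes, and the 5 genes most alike. The promoter nearest the table's gene start was taken, 138, 208 and 694 bases from it for *Tpi1*, *Pkm* and *Gapdh*. Windows of 50 bases come from the principal transcript nearest in length to the table's.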

Additional observations from a re-analysis of the deposited data

Results flagged for a closer look

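*Pgk1* in control 4, at 16.6 CPM against 5.99 to 7.34 in the other 3 controls, lay further from the rest of its group than Dixon's limit for 4 samples allows. Of 20 groups tested (10 enzymes in 2 genotypes) this was the 1 that passed. Chance would flag about 1 in 20, but the enzymes share libraries and varied together, so the 20 are not independent tests. Control 4 was the highest control for all 10 enzymes.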

How the results depend on the processing

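All 10 enzymes stayed higher in mutants under every alternative run. The number called over all genes was 0 by edgeR's quasi-likelihood test, 4 by DESeq2 and 1 by the likelihood ratio test, which called 62 of 15233 genes higher and 29 lower. It stayed at 0 under the other factors, filters and library set fits, under the older form of the quasi-likelihood fit, which was added after seeing the data, and without any one library. The number at an unadjusted p below 0.05 was 7 to 10 and the median log2 fold change 1.22 to 1.71 when 1 library was left out, the lowest without control 2 and the highest without control 4. Of all genes 3.78 to 8.95% were then higher at that p. Without control 4 the log2 fold change of *Pfkp* reached 2.36. The median was 0.74 among the 3 larger libraries. With total counts in place of TMM the median of all genes moved to 0.15 and that of the enzymes to 1.47, and genes at an unadjusted p below 0.05 were 1154 higher and 542 lower, against 1036 and 1096. Fitted with a replicate block, the enzymes had a median of 1.38 and the number at an unadjusted p below 0.05 stayed at 10. Over all genes 1600 were then higher and 1182 lower. The labels do not say what a number shares. Deviations of same-numbered libraries correlated at 0.423, -0.0127, 0.457 and 0.254, so not every pair deviated together. Of the controls, 3 of 4 correlated best with the mutant of their number. The libraries numbered 1, 3 and 4 lay in the same library set as their partner, while control 2 and mutant 2 did not. Whether these correlations reflect pairing or the library set was not tested. *Gapdh* had the fewest counts, 66 in control 1, so its fold change is the least precise in counting.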
